A study of Mus musculus with 22 samples.

Results

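The 8 chaperones and folding enzymes described here work in the lumen and membrane of the endoplasmic reticulum of mouse skeletal muscle: Hspa5, Hsp90b1, Calr, Canx, Pdia3, Pdia4, Pdia6 and P4hb. They were chosen by name, as the best known members of the folding machinery of that compartment, and all 8 are among the 6054 genes with counts in the deposited table. The study gave leucine, an essential amino acid known to activate mRNA translation in muscle, and measured RNA by sequencing together with ribosome footprints, the short mRNA pieces that ribosomes protect from nuclease. C57Bl/6 mice that had been fasted overnight received leucine or vehicle by oral gavage, and quadriceps muscle was taken 30 minutes later. Each assay had 6 leucine and 5 vehicle libraries, which fell into 2 sets by a prefix in their column names: set B held 3 leucine and 2 vehicle libraries, and set A held 3 of each. The labels do not say what the prefix stands for, and they do not tie an RNA library to the footprint library of the same animal.

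Proteins that are secreted, sit in membranes or reside in the sarcoplasmic reticulum enter the endoplasmic reticulum as unfolded chains. Hspa5 (BiP) is the Hsp70-type chaperone that binds those chains first, and Hsp90b1 (GRP94) is the Hsp90-type chaperone that acts on a narrower set of clients. Calr and Canx are the lectin chaperones, soluble and membrane-bound, that hold glycoproteins through their sugars. Pdia3, Pdia4, Pdia6 and P4hb are protein disulfide isomerases: Pdia3 works with Calr and Canx, Pdia6 is found with Hspa5, and P4hb is also a subunit of the prolyl hydroxylase that modifies collagen. Cells raise many of these genes together when unfolded proteins accumulate, a response in which the factor ATF6 acts at a promoter element called ERSE. In skeletal muscle the same membrane system stores the calcium for contraction, which Calr also binds.

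The promoters are shown for the ERSE named above. The 8 genes were chosen as well known members of the folding machinery, many of which that response raises. Matches among them are therefore no independent finding. The ERSE letters are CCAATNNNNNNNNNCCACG, in which N is any base, and they were searched on both strands of the 250 bases before each annotated start. The stretches are from the RefSeq promoter sequences of build GRCm38.p6, written 5′ to 3′ on the gene's strand, and all 8 genes matched an entry. Capitals mark the letters of the motif or of its reverse complement. In the order below they lie at chr2:34772015-34772053 (plus strand), chr10:86705523-86705666 (minus), chr8:84847065-84847103 (minus), chr11:50325790-50325828 (minus), chr12:17266481-17266519 (plus), chr2:121413863-121413900 (plus), chr6:47813592-47813629 (minus) and chr11:120573254-120573313 (minus).
Hspa5: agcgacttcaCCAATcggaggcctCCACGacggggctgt
Hsp90b1: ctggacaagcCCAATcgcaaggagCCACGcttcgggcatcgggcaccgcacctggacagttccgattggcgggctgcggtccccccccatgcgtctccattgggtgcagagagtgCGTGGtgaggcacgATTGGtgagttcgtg
Calr: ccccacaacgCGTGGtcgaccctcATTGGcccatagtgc
Canx: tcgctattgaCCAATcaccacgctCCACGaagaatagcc
Pdia6: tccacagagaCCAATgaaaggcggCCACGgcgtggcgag
Pdia3: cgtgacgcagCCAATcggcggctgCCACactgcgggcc
Pdia4: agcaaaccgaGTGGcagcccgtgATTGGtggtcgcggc
P4hb: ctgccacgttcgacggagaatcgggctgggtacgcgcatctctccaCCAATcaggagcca

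Hspa5, Hsp90b1, Calr, Canx and Pdia6 held the whole ERSE. Hsp90b1 held it on both strands, so its stretch spans both matches. The same letters stood in 37 of 32851 RefSeq promoters, or 0.113%, and in 7 of the 4534 measured genes that had a promoter entry. The other two were Dnajc3, a co-chaperone of Hspa5, and Acacb, an acetyl-CoA carboxylase. Pdia3 and Pdia4 held the element without its last base, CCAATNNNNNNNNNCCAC, which stood in 0.32% of promoters. This shorter form contains the whole element's positions and so counts its matches too. Of the motifs searched, P4hb held only CCAAT, which is part of the ERSE and stood in 33.8% of promoters. Its stretch also contains ccacg, but before the CCAAT and not at the spacing of the ERSE. A related element, ERSE-II (ATTGGNCCACG), stood in 0.0304% of promoters and in none of the 8. These are letter matches in a fixed window, and no binding was measured.

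The 8 genes spanned a wide range of levels in quadriceps. Counts were scaled to a common library size as CPM, with library factors from edgeR's TMM method, then divided by transcript length for RNA and by coding length for footprints. P4hb had the highest RNA of the 8, at 80.4 ± 10.4 CPM per kilobase in leucine muscle and 76.3 ± 6.44 CPM per kilobase in vehicle muscle (SD, n = 6 and 5). Pdia4 had the lowest, at 6.82 ± 1.84 CPM per kilobase with leucine and 6.66 ± 1.97 with vehicle. Between them lay Hspa5 and Calr (69.8 and 67.0 with leucine), Hsp90b1 (46.0), Canx (30.3), Pdia6 (25.8) and Pdia3 (13.9). The ranges of P4hb, Hspa5 and Calr overlapped in both treatments, so their order among each other is not resolved.

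In footprints per coding length, Hspa5 had the highest mean, at 201.6 ± 12.2 CPM per kilobase in leucine muscle and 211.8 ± 10.7 in vehicle muscle. Calr had 181.3 ± 20.4 CPM per kilobase with leucine and 179.8 ± 22.6 with vehicle, and P4hb had 180.9 ± 22.1 with leucine and 145.7 ± 17.8 with vehicle. The ranges of these 3 genes overlapped with leucine, so their order is not resolved there. With vehicle, Calr (153.6 to 204.4) overlapped both Hspa5 (194.9 to 219.5) and P4hb (117.8 to 161.3). Only Hspa5 and P4hb were apart. The means of Hsp90b1, Canx and Pdia3 lay together, between 94.3 and 98.6 CPM per kilobase with leucine and between 91.7 and 103.4 with vehicle. Their ranges overlapped in both treatments, while Pdia6 (64.4 with leucine, 62.8 with vehicle) and Pdia4 (18.0 and 18.1) lay below all of their libraries. Pdia3 therefore stood near Canx and Hsp90b1 in footprints, although its RNA was the second lowest of the 8 per length. Together the 8 genes made up 0.122 to 0.188% of all footprint counts and 0.0583 to 0.114% of all RNA counts in a library. The lowest count behind any of these values was 130, for Pdia4 RNA, and no gene of the table has a count under 129 in any library.

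All 8 genes had more footprints relative to RNA than the typical measured gene in vehicle muscle. This ratio was tested in a single edgeR model of all 22 libraries, with quasi-likelihood tests and Benjamini-Hochberg adjustment over all 6054 genes, and a gene was called at an adjusted p under 0.05. Because the 2 assays were scaled jointly, a log2 ratio of 0 is about the middle gene rather than equal numbers of molecules. Called higher were 8 of 8, against 38.2% of all genes tested, and the median log2 ratio was 1.14, against 0.02 over all genes. A large share of all genes departs from 0 in either direction (75.2%), so the size of each ratio tells more than its call.

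Pdia3 had the highest ratio of the 8, with a log2 value of 2.36 ± 0.14 (SE, adjusted p = 9.27e-13), which put it in position 77 of 6054 genes. Its footprints in vehicle muscle were 177 and 173 CPM in set B and 125, 140.4 and 151 CPM in set A, and its RNA was 30.5 and 40.3 CPM in set B and 26.8, 41.7 and 33.0 CPM in set A. Every footprint library was above every RNA library in these CPM, which were scaled within each assay. On the joint scale of the ratio, the means in vehicle muscle were 164.8 CPM in footprints and 32.1 CPM in RNA. Hspa5 had a log2 ratio of 1.497 ± 0.14, Hsp90b1 of 1.37 ± 0.15 and Pdia4 of 1.27 ± 0.20. Before any allowance for length, these 3 lie in the top 8.46% of all genes. Calr (1.01 ± 0.15) and Pdia6 (0.95 ± 0.20) followed.

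Canx (0.57 ± 0.13, adjusted p = 0.000604) and P4hb (0.41 ± 0.11, adjusted p = 0.00189) had the smallest ratios. Footprints cover coding sequence while RNA reads cover the whole transcript, and only 41.3% of the Canx transcript is coding, against 57.3 to 87.2% in the other 7. After division of footprints by coding length and of RNA by transcript length, the ratio of Canx was 1.81 times that of the median gene. Per length, Pdia3 was still first of the 8, at 4.50 times the median and in position 164 of 5941 genes. Hspa5 was at 1.89 times the median and Hsp90b1, Calr, Pdia4 and Pdia6 at 1.49 to 1.58 times. Per length, Hspa5 lay in the top 17.2% of genes, Pdia4 in the top 25% and Hsp90b1 in the top 27.8%. P4hb was near the middle of all genes, at 1.11 times the median and in position 2612. The call for P4hb was lost within set A alone (0.41, adjusted p = 0.0634) and with genes of a mean count of at least 1000 (0.18, adjusted p = 0.154).

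**Figure D1:**
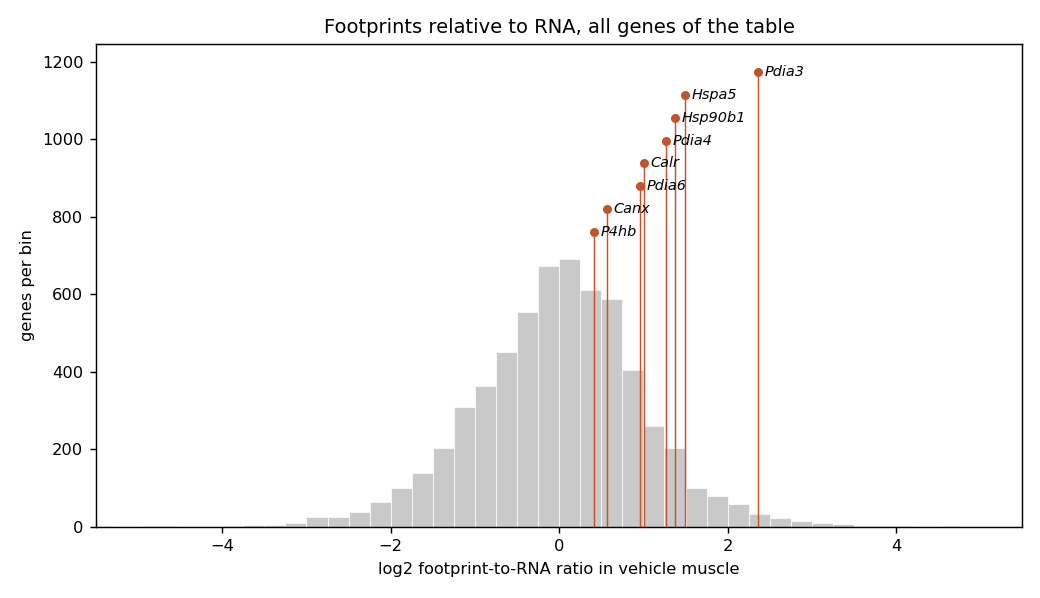
Log2 ratio of footprints over RNA in vehicle muscle from edgeR: the histogram counts all 6054 genes per bin, and each marked line is a chaperone gene, at a height chosen only to keep the names apart. All 8 lie right of the middle of the genes, from P4hb at 0.41 to Pdia3 at 2.36.

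Leucine left the RNA of the 8 genes without a detectable difference at 30 minutes. None of the 8 was called by edgeR, and the background was 0% of 6054 genes. At an unadjusted p under 0.05 there were 163 genes, none of them among the 8, and DESeq2 also called 0. All 8 log2 differences, leucine over vehicle, were above 0, as were those of 2988 of the 6054 genes. Within set B alone 5 of the 8 were below 0, namely Calr, Canx, Pdia4, Pdia6 and P4hb, and the median was -0.06, while within set A it was 0.16. With all libraries the differences ran between 0.02 ± 0.16 for Calr and 0.19 ± 0.15 for Hsp90b1, with a median of 0.08, against 0.00 over all genes, and every adjusted p was 0.999. The samples are whole muscle, so a change in the cells of a type and a change in RNA per cell cannot be told apart. Fibroblast and matrix markers were also above 0 in 8 of 8 RNAs, with none called and a median of 0.17. Their summed RNA was 2162 to 5214 CPM with leucine and 2246 to 4147 CPM with vehicle. Endothelial markers were above 0 in 1 of 5 RNAs (median -0.15), and smooth muscle and pericyte markers in 0 of 4 (median -0.21). Muscle fibre markers were above 0 in 4 of 6 (median 0.04), and macrophage and leukocyte markers in 2 of 3 (median 0.19). The only measured adipocyte marker, Fabp4, was at -0.39. None of these was called, and the part of the cell types in the chaperone values was not tested.

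Hspa5 RNA was 123 CPM in the lowest leucine library, 192 in the median and 214 in the highest, against 129.0, 165, 145, 203 and 208 CPM in the vehicle libraries. The groups overlapped over nearly their whole range. Its log2 difference of 0.10 had a 95% interval of -0.26 to 0.47. For Hsp90b1 the leucine libraries ran between 91.2 and 151 CPM around a median of 128, and the vehicle libraries had 95.6, 98.8, 88.5, 124 and 147 CPM. In this gene too, high and low libraries occurred in both treatments.

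The lectin chaperones overlapped between treatments too. Calr RNA was 86.5 CPM in the lowest leucine library, 136 in the median and 153 in the highest, against 106, 118, 107, 139 and 174 CPM with vehicle. Canx had a log2 difference of 0.04 ± 0.12 with an interval of -0.23 to 0.30. Both intervals include no difference, and that of Calr, -0.34 to 0.37, was the wider.

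Among the isomerases, Pdia4 and Pdia6 had the least precise RNA differences, 0.03 ± 0.24 and 0.14 ± 0.24. The most extreme libraries stood in opposite treatments. The third leucine library of set A had 7.97 CPM of Pdia4, where the other leucine libraries had 16.7 to 19.8, and 30.9 CPM of Pdia6, where the others had 54.2 to 66.7. This library was the lowest of all 11 in 6 of the 8 genes, with Pdia3 and Hsp90b1 as the exceptions. A vehicle library of set B was the highest of all 11 in Pdia4 (24.4 CPM), Pdia6 (80.4 CPM), Calr and Canx. Without the low leucine library the log2 differences were 0.17 for Pdia4, 0.26 for Pdia6, 0.11 for Calr and 0.15 for the median of the 8, and without the high vehicle library they were 0.22, 0.38, 0.15 and 0.17. None was called in either case. Pdia3 (0.09 ± 0.12) and P4hb (0.08 ± 0.10) were less affected, at 0.09 and 0.13 without the low leucine library.

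**Figure D2:**
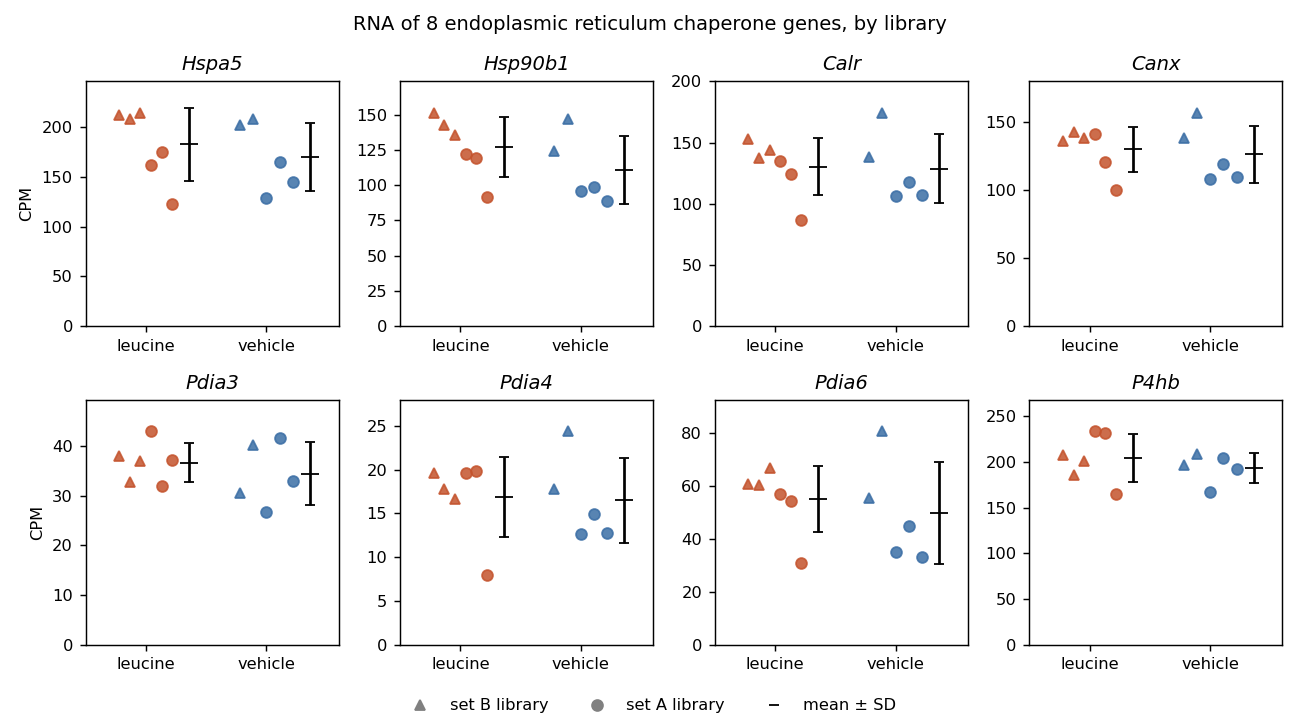
RNA of the 8 genes in every library, in CPM on a linear axis from 0, with leucine left of vehicle; triangles are set B, circles are set A and bars are group means with SD. The groups overlap in all 8 genes, and the lowest leucine library of Pdia4 (7.97 CPM) and Pdia6 (30.9 CPM) is the same library.

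In footprints, none of the 8 genes was called either, where edgeR called 0.76% of all genes (42, or 0.694%, higher and 4, or 0.0661%, lower with leucine). At an unadjusted p under 0.05 there were 731 genes, and the only member among them was P4hb. DESeq2 called 253 genes, again without any of the 8. The log2 differences were above 0 in 4 of the 8 and below 0 in the other 4, with a median of 0.00, against -0.01 over all genes.

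P4hb, the isomerase that is also the collagen hydroxylase subunit, had the largest footprint difference of the 8. Its leucine libraries had 233 CPM at the lowest, 274 in the median and 322 at the highest, against 179.9, 222, 246, 219 and 246 CPM in the vehicle libraries. Of the 6 leucine libraries, 5 were above every vehicle library, and the sixth, of set A, was below 2 of the vehicle libraries. Over all genes, 1.75% had every leucine library above every vehicle library, and none of the 8 did. The means were 276 ± 33.7 CPM with leucine and 223 ± 27.2 CPM with vehicle (SD, n = 6 and 5).

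The log2 difference of P4hb was 0.31 ± 0.10, a fold of 1.24, with a 95% interval of 0.09 to 0.54, and its adjusted p by edgeR was 0.225. Within the sets it was 0.29 in set B (adjusted p = 0.374) and 0.31 in set A (adjusted p = 0.594). Leaving out each library in turn gave 0.24 to 0.36, and the adjusted p over all of its alternatives ran between 0.0592 and 0.594. The authors' deposited table of footprints gives P4hb a log2 fold change of 0.33 with an FDR of 0.564. Its RNA differed by 0.08 ± 0.10, and the difference of the footprint change from the RNA change, its translational efficiency, was 0.22 ± 0.15 (adjusted p = 0.839).

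Cell type markers were read from the same libraries as the P4hb footprints. Fibroblast and matrix markers, the main collagen producers among the listed types, were negative in 7 of 8 genes, with a median log2 difference of -0.23 and none called. Their summed footprints were 9183 to 11820 CPM with leucine and 8980 to 16860 CPM with vehicle. Muscle fibre markers were positive in 5 of 6 genes and none was called, with sums of 219300 to 329100 CPM with leucine and 194100 to 250800 CPM with vehicle. Smooth muscle and pericyte markers were positive in 3 of 4 genes (median 0.24), and the adipocyte marker Fabp4 was at 0.39. Endothelial markers were positive in 1 of 5 genes (median -0.07), and macrophage and leukocyte markers in 0 of 3 (median -0.34). None of these was called either, and the part of the cell types in the P4hb values was not tested.

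For the other 7 genes the footprint differences were small and their intervals narrow. Hspa5 footprints were 371 CPM at the lowest, 388 in the median and 434 at the highest with leucine, against 383, 408, 431, 428 and 431 CPM with vehicle. Its log2 difference was -0.07 ± 0.07, with an interval of -0.22 to 0.08, which is the narrowest of the 8. Hsp90b1 (-0.07 ± 0.12), Pdia3 (-0.10 ± 0.12) and Pdia4 (-0.01 ± 0.11) were below 0, while Calr (0.01 ± 0.10), Canx (0.08 ± 0.12) and Pdia6 (0.04 ± 0.10) were above it. The intervals of these 7 genes lie between -0.36 and 0.35, so a doubling or halving relative to the other mRNAs lies outside all of them. A change shared by all mRNAs is removed by the scaling and cannot be seen here.

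**Figure D3:**
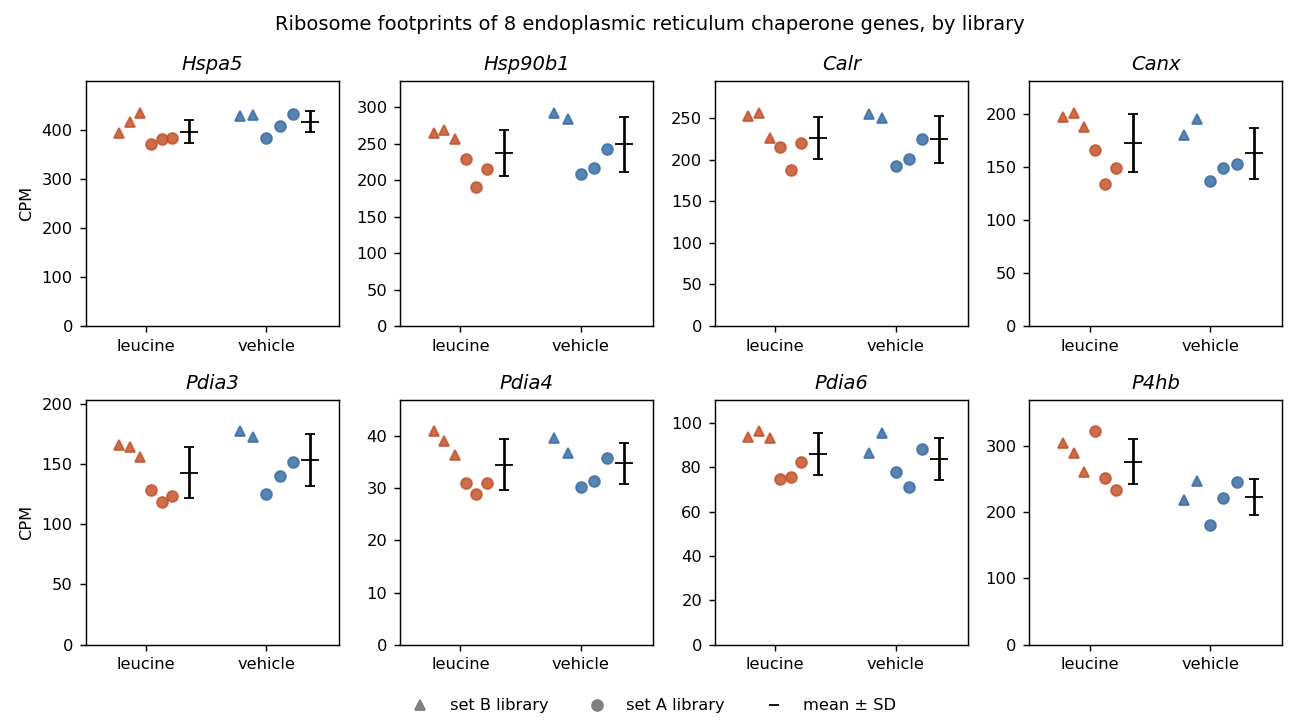
Ribosome footprints of the 8 genes in every library, in CPM on a linear axis from 0, with leucine left of vehicle; triangles are set B, circles are set A and bars are group means with SD. P4hb has 5 of 6 leucine libraries above all vehicle libraries, while in Hsp90b1, Calr, Canx, Pdia3 and Pdia4 all triangles lie above all circles.

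Translational efficiency gave no call among the 8 genes, nor in the whole table (0% of 6054 genes by edgeR). At an unadjusted p under 0.05 there were 429 genes, none of the 8 among them, and DESeq2 called 57 genes. Hsp90b1 had the lowest value, -0.27 ± 0.20, followed by Pdia3 (-0.20 ± 0.18) and Hspa5 (-0.19 ± 0.18). P4hb had the highest. The median of the 8 was -0.08, against -0.02 over all genes, and 6 of 8 values were below 0.

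**Figure D4:**
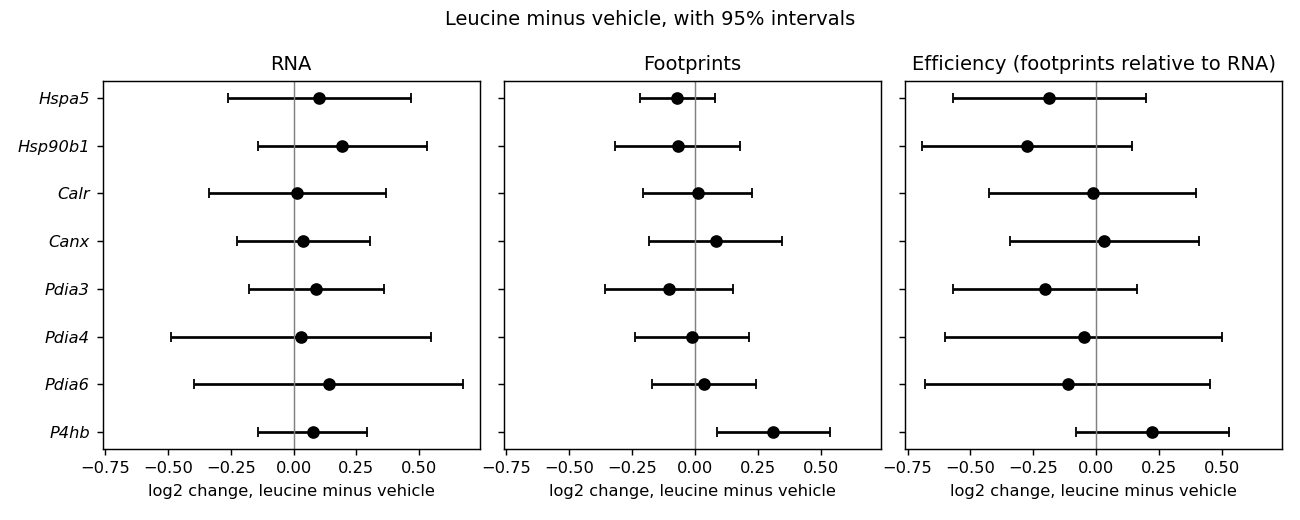
Log2 difference, leucine over vehicle, of each chaperone gene in RNA, footprints and translational efficiency, with 95% intervals from edgeR. All intervals include 0 except that of P4hb footprints, 0.09 to 0.54, whose adjusted p is 0.225.

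The wider folding machinery was read from 10 lists with 170 genes, of which 127 are in the table. None was called with leucine in RNA, footprints or efficiency, and 8, 11 and 7 of them had an unadjusted p under 0.05. The median log2 differences of the 127 were 0.05 in RNA, 0.02 in footprints and -0.05 in efficiency. The co-chaperones of Hspa5 (10 measured) had medians of 0.03 in RNA and 0.01 in footprints, and the remaining disulfide isomerases and oxidases (11 measured) 0.03 and 0.02. The sensors and factors of the unfolded protein response (10 measured) had 0.04 in RNA and -0.03 in footprints.

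The 3 listed genes with the smallest p in RNA were Hsp90ab1, a cytosolic Hsp90 (0.28 ± 0.08), Hsph1, a cytosolic Hsp110 (0.44 ± 0.15), and Srp68 of the signal recognition particle (0.34 ± 0.13). In footprints they were St13, a cytosolic Hsp70 partner (0.36 ± 0.11, adjusted p = 0.188), Hsp90ab1 (0.55 ± 0.17, adjusted p = 0.205) and Srl, the sarcoplasmic reticulum protein sarcalumenin (0.35 ± 0.11, adjusted p = 0.21). In efficiency they were the reductase Dnajc10 (-0.34 ± 0.09, adjusted p = 0.228), Srl (0.33 ± 0.13) and the isomerase Tmx1 (0.46 ± 0.20). The cytosolic heat shock list as a whole (17 measured) had a median of 0.21 in RNA, with 16 positive, and 0.07 in footprints, with 13 positive. Whether it differs from the 8 endoplasmic reticulum genes was not tested.

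Footprints against RNA in vehicle muscle varied more between these lists, where 38.2% of all genes were called higher and 37% lower. Of the peptidyl-prolyl isomerases and collagen folding factors, 8 of 9 were called higher and none lower, with a median of 1.31. The oligosaccharyltransferase, which attaches the sugars that Calr and Canx read, had 7 of 10 higher, 1 lower and a median of 1.06. By contrast the remaining isomerases and oxidases had 3 of 11 higher and 6 lower (median -0.22), and the calnexin cycle and glycan trimming enzymes 2 of 9 higher and 5 lower (median -0.33). The cytosolic heat shock chaperones had 15 of 17 higher and none lower (median 0.92), and the co-chaperones of Hspa5 had 6 of 10 higher and 2 lower (median 0.53). No test compared these lists with the 8 chaperone genes, whose median was 1.14.

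More of the chaperone genes differed between the library sets than between treatments. With treatment in the model, edgeR called 5 of the 8 RNAs higher in set B than in set A, against 9.02% of all genes higher (546) and 9.8% lower (593), or 18.8% in all. With upper-quartile factors in place of TMM the split over all genes was 673 higher and 423 lower. The median of the 8 was 0.40, against -0.01 over all genes. The 5 were Hspa5, Hsp90b1, Calr, Canx and Pdia6, and none of the 8 was lower.

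Pdia6 had the largest RNA difference of set B over set A, 0.60 ± 0.17 (adjusted p = 0.0395). In set B its RNA was 60.5, 60.1 and 66.7 CPM with leucine and 55.4 and 80.4 CPM with vehicle, against 56.9, 54.2 and 30.9 CPM with leucine and 34.9, 44.9 and 33.2 CPM with vehicle in set A. A single set A library lay above the lowest of set B. Hspa5 had 213, 208 and 214 CPM with leucine and 203 and 208 with vehicle in set B, against 162, 175 and 123 with leucine and 129.0, 165 and 145 with vehicle in set A.

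The Hspa5 sets did not overlap, at 0.47 ± 0.09 (adjusted p = 0.0119), and neither did those of Hsp90b1 (0.44 ± 0.09, adjusted p = 0.0119) and Calr (0.41 ± 0.11, adjusted p = 0.0328). Over all genes, 6.57% had every set B library above every set A library. Canx differed by 0.29 ± 0.09 (adjusted p = 0.0434). Pdia4 had a similar size but a wider error, 0.39 ± 0.21 (adjusted p = 0.206). Pdia3 and P4hb were level between the sets, at 0.00 ± 0.13 and 0.00 ± 0.10.

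The 5 called RNAs are those whose promoters hold the whole ERSE printed above. Of the 3 that were not called, Pdia3 and Pdia4 lack its last base, and P4hb holds neither form. Uncalled Pdia4 had a larger RNA difference (0.39 ± 0.21) than called Canx (0.29 ± 0.09). The match did not hold in footprints, where edgeR called Pdia3 (0.36) and Pdia4 (0.30) but not Hspa5 (0.11, adjusted p = 0.205). The other measured genes with the whole element were not called higher. Dnajc3 RNA differed by 0.12 ± 0.07 (adjusted p = 0.256), and Acacb was lower in set B, with a log2 difference of -1.02 ± 0.28 (adjusted p = 0.0324). Set calls also occurred in the wider lists of folding genes. Of their 127 measured genes, 23 RNAs were called higher in set B and 6 lower, with a median of 0.06. The cytosolic heat shock chaperones had 6 of 17 RNAs higher and 1 lower (median 0.20). In footprints they had 12 higher and 3 lower (median 0.34). The match between element and call was seen after the calls were known, rests on 8 genes and was not tested.

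How many of the 8 RNAs were called depended on single libraries. With all libraries the count was 5 under each of 6 other settings of tool, scaling and filter. Among these, the setting without a low-count filter repeats the main fit, because that filter removes nothing. It was 2, Hspa5 and Hsp90b1, when any single library of the 5 with vehicle, or of the 3 with leucine in set B, was left out. It was 4 without the third leucine library of set A and 5 without the first or second. The differences themselves were at or above 0.24 in Calr, Canx and Pdia6 in all of these fits, with adjusted p values of up to 0.123.

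In footprints, 6 of the 8 genes were called higher in set B, against 11.7% of all genes higher (706) and 12.2% lower (736), or 23.8% in all. With upper-quartile factors the split was 927 higher and 605 lower. The median of the 8 was 0.28, against 0.00 over all genes. Canx (0.38 ± 0.06, adjusted p = 0.00168), Pdia3 (0.36 ± 0.06, adjusted p = 0.00134) and Hsp90b1 (0.34 ± 0.07, adjusted p = 0.00319) differed most. Pdia4 (0.30 ± 0.06), Calr (0.26 ± 0.07) and Pdia6 (0.25 ± 0.07) were also called. The sets did not overlap in 5 of these 6 genes, all but Pdia6, while this held for 6% of all genes.

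Pdia3 footprints illustrate this. They were 166, 164 and 156 CPM with leucine and 177 and 173 with vehicle in set B, against 129, 119 and 124 with leucine and 125, 140.4 and 151 with vehicle in set A. Its RNA did not separate the sets. Hspa5 was the reverse: its footprints differed by 0.11 ± 0.06 (adjusted p = 0.205) while its RNA was called. The mean footprint over mean RNA of Hspa5 in vehicle muscle was 2.40 in set B and 3.23 in set A, a difference that was not tested. P4hb differed between the sets in neither assay, at 0.09 ± 0.10 in footprints (adjusted p = 0.531). The footprint count of 6 held when any single library was left out and under 6 other settings, including the repeat of the main fit without a low-count filter.

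**Figure D5:**
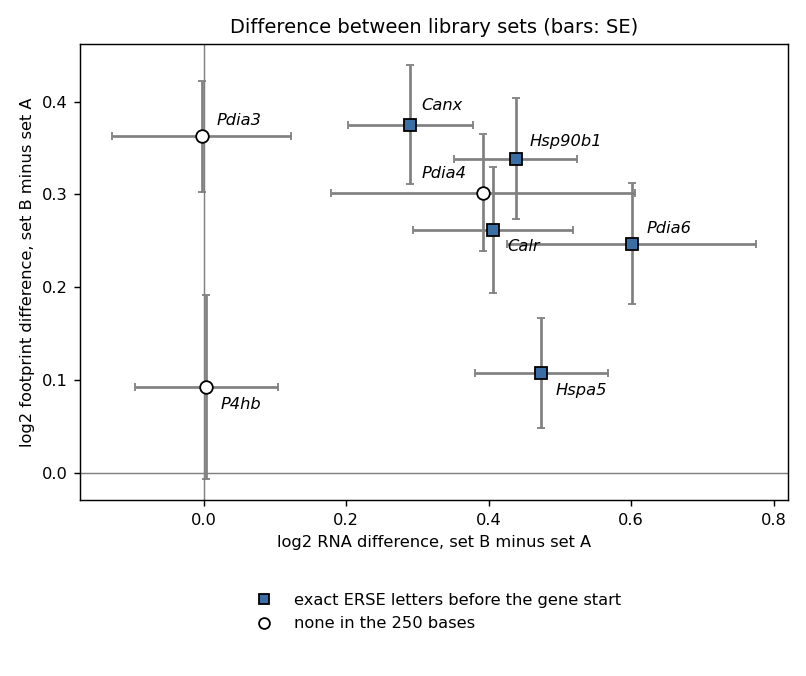
Log2 difference, set B over set A, of each chaperone gene in RNA (horizontal) and footprints (vertical), with SE bars from edgeR; filled squares hold the whole ERSE in the 250 bases before the gene start and open circles do not. The 5 squares lie between 0.29 and 0.60 in RNA beside Pdia4 at 0.39, and Hspa5 and P4hb are lowest in footprints.

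Several library properties moved with the sets. RNA libraries of set B held 26947663 to 30944085 counts and those of set A 15016267 to 20502368, whereas footprint libraries of set B held 21697096 to 25016569 and those of set A 34016483 to 48996109. Of the 6 muscle fibre markers, 5 were below 0 in RNA for set B over set A, and 4 of them were called lower (median -0.46). Their summed RNA was 290500 to 337900 CPM in set B and 398300 to 459600 CPM in set A, and their summed footprints were 194100 to 242700 CPM in set B and 212000 to 329100 CPM in set A. Fibroblast and matrix markers had 0 of 8 called in RNA, with 2407 to 3346 CPM in set B and 2162 to 5214 in set A, and 2 of 8 lower in footprints. The single measured adipocyte marker, Fabp4, was above 0 in both assays without a call, at 0.78 in RNA and 0.59 in footprints. Its RNA was 107 to 601 CPM in set B and 97.4 to 264 CPM in set A. The 3 measured macrophage and leukocyte markers were above 0 in RNA, with a median of 0.10 and none called. Their summed RNA was 93.3 to 195 CPM in set B and 58.2 to 187 CPM in set A. None of 4 plasma cell markers is in the table. The part of depth and of these cell types in the set differences was not tested, and what the sets are cannot be told apart from them.

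No difference of the leucine effect between the sets was called in the 8 genes. In the test of treatment by set, edgeR called 0 of 6054 genes in RNA (110 at an unadjusted p under 0.05, and 2 by DESeq2) and 0 in footprints (176, and 4 by DESeq2). All 8 RNA values of that test, set B over set A, were below 0, with a median of -0.18, against -0.01 over all genes. The lowest were Pdia4 (-0.47 ± 0.43) and Pdia6 (-0.45 ± 0.34). The vehicle libraries of set B include the one with the highest Pdia4 and Pdia6.

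How far the 8 genes moved alike from library to library differed by gene. The correlations are descriptions over 11 libraries that share sets and depth, with no other gene pairs beside them. Over the 28 pairs of genes, Pearson's r of log2 CPM in RNA ran between 0.223 and 0.958, with a median of 0.808. The pairs without Pdia3 and P4hb were all at 0.807 or above, while Pdia3 was at 0.223 to 0.485 with the other genes. In footprints r ran between -0.0951 and 0.964 around a median of 0.796, and P4hb was least like the rest, at no more than 0.549. With the means of each treatment and set removed, the medians were 0.848 in RNA and 0.518 in footprints. The footprints of P4hb then reached 0.814 with Canx and 0.792 with Pdia3, but were at 0.0974 with Pdia6. Those of Hspa5 were at no more than 0.424 with any other gene, and its pair with Canx was the lowest, at 0.0845. In RNA, P4hb was then at 0.432 with Pdia3 and at 0.774 to 0.95 with the rest.

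The genes whose libraries followed the mean of the 8 most closely differed between the assays. In footprints they were Serpinh1, the collagen chaperone Hsp47 (r = 0.957), Hyou1, the nucleotide exchange factor of Hspa5 (0.937), Cald1, caldesmon (0.935), P4ha1, the catalytic subunit that pairs with P4hb in prolyl hydroxylase (0.934), and Tram1 of the translocon (0.931). With treatment and set means removed these fell between 0.617 and 0.801. In RNA they were Cd34 (0.98), Nop58 (0.975), Cept1 (0.972), Vps4b (0.971) and Cmas (0.968). With the same means removed, the RNA values were 0.961 to 0.995. Each is the best of 6054 genes over the same 11 libraries and is a description only.

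Reads of near-identical sequence could reach the counts of a few members. Of all 28-base windows of the Hsp90b1 transcript, 17.6% also occur in other annotated transcripts on either strand, mostly in overlapping noncoding transcripts. For Calr this was 3.29%, through the pseudogene Calr-ps, and for Pdia6 1.21%, through the overlapping gene Atp6v1c2. The other 5 genes were at 0.211% or below. How the authors treated such reads is not given in the sources used here.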

How the data were processed

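RNA and ribosome footprints of mouse quadriceps were read from the deposited table of whole-number counts per gene, which the authors made with Bowtie on build mm9, per the submitters' processing notes; the tool that counted reads is not given in the sources used here. Per the file headers, the authors' deposited edgeR tables give log2 fold changes, p-values and transcript length. A search by gene name returned no Pdia4 row from the authors' footprint results. All 22 columns of counts were used, and 0 columns were left aside. The smallest count in the table is 129, so low genes are absent and a filter removes nothing.

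Counts were tested with edgeR 4.0.16 (R 4.3.3): TMM factors, robust quasi-likelihood F tests and Benjamini-Hochberg adjustment over 6054 genes, called under 0.05, per assay for leucine and sets, and in 1 model of all 22 libraries for efficiency and footprints over RNA. Depth was 17941961 to 30944085 counts in leucine and 15016267 to 27305083 in vehicle RNA libraries, and 21697096 to 47646844 and 24432316 to 48996109 in footprint libraries. Intervals are at 95%. The models for leucine, efficiency and footprints over RNA were tested on simulated data that held no set difference. Those for the sets and for treatment by set were not simulated. Alternatives were DESeq2 1.42.0, limma-voom 3.58.1, other scaling, no low-count filter (the same fit as the main one) and a mean count of at least 1000. Others were set as a covariate, single sets and leaving out each library. The alternatives for the set comparisons, for treatment by set and most of those for footprints over RNA were chosen after seeing the data. Transcript lengths (6008 genes) are those given in the authors' deposited edgeR tables. Coding lengths (5985 genes) are from GENCODE transcripts matched by RefSeq accession, used with no coordinates.

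The members and lists were chosen with earlier results of these data known. Named besides the 8 are the 3 listed genes with the smallest p in each leucine comparison, the 5 genes most like the members in each assay, and the other measured genes with the whole ERSE, which were chosen after their promoters were seen. Nothing in the labels states that each library had an animal of its own. The p-values here then rest on the spread between these samples alone, which may be technical.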

Additional observations from a re-analysis of the deposited data

Results flagged for a closer look

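Within the groups of 5 or 6 libraries, 32 groups of the 8 genes' CPM were checked for a library far from the others, and 2 values stood apart. Chance gives about 1 in 20 such groups. Pdia4 RNA was 7.97 CPM in the third leucine library of set A, where the nearest leucine library had 16.7 CPM. Pdia6 RNA was 30.9 CPM in the same library, where the nearest had 54.2 CPM.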

How the results depend on the processing

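Of 426 values of the 8 genes under other settings, 406 kept their direction and side of the threshold, 18 changed sign and 2 (both P4hb, footprints over RNA) lost their call; leaving out libraries changed the sign of 59 of 704 and ended 25 calls. The values without a low-count filter repeat the main fit and could only stay the same. No call of a member by leucine appeared in any setting. The settings for the set comparisons were chosen after seeing the data, and the causes below were not tested. Sign changes in RNA with leucine were Calr with set as a covariate (-0.013) and, within set B, Calr (-0.11), Canx (-0.086), Pdia4 (-0.23), Pdia6 (-0.12) and P4hb (-0.032). In footprints they were Calr with upper-quartile factors (-0.015), a mean count of at least 1000 (-0.003429), set as a covariate (-0.012) and within set B (-0.038), Pdia6 within set A (-0.029) and Pdia4 within set B (0.028). In efficiency they were Canx within set A (-0.084) and, within set B, Calr (0.067), Pdia4 (0.25) and Pdia6 (0.17). Pdia3 RNA between the sets was 0.0063 with limma-voom and 0.046 with upper-quartile factors.

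Genes called in footprints with leucine were 46, against 253 with DESeq2, 0 with limma-voom, 0 with upper-quartile factors, 0 within set A, 1 within set B and 0 to 98 leaving out libraries. DESeq2 called 57 in efficiency, and 2 in RNA and 4 in footprints for treatment by set. With a mean count of at least 1000, which leaves fewer genes, footprints over RNA called 2206 of 2794 genes and the median of the remaining members was 0.78. Set B over set A called 1139 RNAs, against 1978 with DESeq2, 511 with that count minimum and 417 to 1743 leaving out libraries, and 1442 footprints, against 806 with the minimum. Members called in set RNA were 2 to 5 leaving out libraries.

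Leaving out libraries gave RNA differences with leucine of -0.044 to 0.15 for Calr, -0.0094 to 0.13 for Canx and -0.04999 to 0.22 for Pdia4; footprints of -0.0396 to 0.062 for Calr, -0.065 to 0.0403 for Pdia4 and -0.018 to 0.087 for Pdia6; efficiencies of -0.15 to 0.058 for Calr, -0.062 to 0.10 for Canx, -0.24 to 0.042 for Pdia4 and -0.36 to 0.0016 for Pdia6; and set RNA of -0.049 to 0.065 for P4hb and -0.088 to 0.0705 for Pdia3. No paired analysis was possible because the count columns carry no replicate number.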
